A study of Mus musculus with 6 samples.

Results

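The 9 genes described here write, copy, read or remove DNA methylation in mouse embryonic stem cells (ESCs): the maintenance methyltransferase Dnmt1 and its cofactor Uhrf1, the de novo methyltransferases Dnmt3a and Dnmt3b and their cofactor Dnmt3l, the 5-methylcytosine dioxygenases Tet1, Tet2 and Tet3, and the thymine DNA glycosylase Tdg. They were chosen by gene symbol from a deposited RNA-Seq table of 21639 entries, and each of the 9 symbols matched 1 entry. The table gives RPKM, a level scaled by transcript length and by library size, so levels of different genes may be set beside each other. Dnmt3b RNA rose and Tet1 and Tet2 RNA fell between ESCs and embryoid bodies in each of the 3 lines studied, whereas Dnmt1, Uhrf1, Dnmt3l and Tet3 stayed within 1.5-fold in each line. Between lines on the same day 0 of 9 members passed 1.5-fold, a count read beside the 8.02% to 18.4% of all entries that did.

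In mammalian cells Dnmt1, guided by Uhrf1 to newly replicated DNA, copies methylation onto the new strand, and Dnmt3a and Dnmt3b, helped by the catalytically inactive Dnmt3l, place methyl groups on unmethylated CpG sites. TET enzymes oxidise 5-methylcytosine, and Tdg removes the more oxidised forms so that base excision repair can restore cytosine. Cultured ESCs are known for high Tet1 and Dnmt3l, and Dnmt3b is known to increase as naive pluripotent cells turn into epiblast-like cells.

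The study asked how 3 residues of the extended acidic patch of the histone variant H2A.Z bear on gene expression in ESCs and during their differentiation. RNA was sequenced from 3 lines, each as ESCs (day 0, D0) and as embryoid bodies (EBs, aggregates differentiating without LIF) on day 3 (D3), which gives 6 libraries with 1 library per condition. The H2A.Z WT line carried doxycycline-inducible, YFP-tagged H2A.Z, and the H2A.Z AP3 line carried the same construct with the 3 patch residues replaced by those of histone H2A. By the study's methods both were KH2 ESCs, made by lentiviral infection and sorted for YFP, in which hairpins against the 3′ UTR of H2afz (the H2A.Z gene) were introduced to deplete the endogenous histone. The labels also name V6.5 (129SvJae and C57BL/6) ESCs. A library labelled KD stood for H2A.Z depletion, made with the same hairpins in the inducible lines, and whether a transgene was induced in its cells is not given in the sources used here. The cells were grown on irradiated fibroblasts, which were left out for the last passage. With 1 library per condition a difference within a line, or between lines on 1 day, compares 2 libraries and has no replicate error or p-value. The change from D0 to D3 averaged over the 3 lines, and a difference between lines averaged over both days, were also fitted with limma, with the spread taken from how far the libraries depart from a sum of line and day. In the counts by fold, a gene is said to rise, fall or change only where its ratio passed 1.5-fold, the threshold of the study.

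H2afz was listed at 279, 343 and 304 RPKM in the ESC libraries of WT, KD and AP3 and at 258, 236 and 394 RPKM in their EB libraries. The gene level does not separate endogenous from transgene RNA, so it does not measure the endogenous depletion, which the study assayed by qRT-PCR and Western blot, not analysed here. Since H2afz was not lower in the library labelled H2A.Z KD than in WT at D0, the name "the library labelled H2A.Z KD" is kept throughout. Its paralogue H2afv lay between 52.2 and 63.3 RPKM. Between 11644 and 11802 entries reached 1 RPKM in a library, and read depth could not be recovered from the table. The pluripotency genes Pou5f1 (358 to 540 RPKM), Sox2 (109.7 to 196 RPKM) and Zfp42 (122 to 214 RPKM) were present in all 6 libraries, D3 included, though Sox2 was lower in AP3 ESCs (109.7 RPKM) than in WT ESCs (191 RPKM) and in ESCs labelled KD (196 RPKM) and Zfp42 fell from D0 to D3 in the line labelled KD (214 to 122 RPKM). Bulk RNA cannot tell fewer cells of a type from less RNA per cell.

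The maintenance pair was high and steady. Uhrf1, on chromosome 17 (56442760 to 56462909, plus strand, mm9), was at 111 RPKM in WT ESCs, 112 in the ESC library labelled KD and 104 in AP3 ESCs, and at 104, 87.3 and 106 RPKM in EBs. It was the most abundant member in 5 of the 6 libraries, and only 4.58% of the 11802 entries with at least 1 RPKM lay above it in WT ESCs. The lowest Uhrf1 level was in the D3 library labelled KD, where Dnmt3b passed it. Dnmt1, on chromosome 9 (20711653 to 20757317, minus strand), was at 55.5, 55.8 and 46.2 RPKM in ESCs, and 55.4, 50.5 and 51.6 RPKM in EBs. Its highest level exceeded its lowest, in AP3 ESCs, by 1.21-fold. Uhrf1 RNA was 1.73 to 2.26 times Dnmt1 RNA across the libraries.

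Dnmt3b showed the widest range of the members, 3.41-fold from lowest to highest library. Its gene lies on chromosome 2 (153475190 to 153513466, plus strand, mm9), and it was listed at 34.0 RPKM in WT ESCs, 36.9 in the ESC library labelled KD and 30.7 in AP3 ESCs, and at 71.2, 96.0 and 105 RPKM in EBs. All 3 EB libraries lay above all 3 ESC libraries, and the WT EBs were the lowest of the EBs. From D0 to D3 Dnmt3b rose 2.09-fold in WT (log2 change 1.07), 2.60-fold in the line labelled KD (1.38) and 3.41-fold in AP3 (1.77). Of all entries tested, 4.40%, 2.58% and 1.11% rose further in the respective lines. Dnmt3b thereby moved from about the level of Dnmt3a to 2.62 to 3.64 times that level.

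Dnmt3a, on chromosome 12 (3806980 to 3914443, plus strand), was at 29.4, 32.2 and 25.1 RPKM in ESCs, and 27.2, 26.4 and 39.3 RPKM in EBs in WT, the line labelled KD and AP3. The AP3 line was the lowest of the 3 as ESCs and the highest as EBs. Dnmt3a rose 1.56-fold from D0 to D3 in AP3 (log2 change 0.65), while its log2 change was -0.12 in WT and -0.29 in the line labelled KD, neither past 1.5-fold. Dnmt3l, on chromosome 10 (77492776 to 77526360, plus strand), is a cofactor rather than an enzyme and was the second most abundant member at D0. It was at 101, 78.6 and 100.7 RPKM in ESCs, and 78.8, 71.9 and 91.1 RPKM in EBs, lower in each line at D3 but by at most 1.29-fold. The library labelled KD was the lowest of the lines on both days. The Dnmt3l entry spans the locus of Aire, which has its own entry at 0.889 to 3.87 RPKM, and whether counting used strand is not given in the sources used here.

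**Figure D1:**
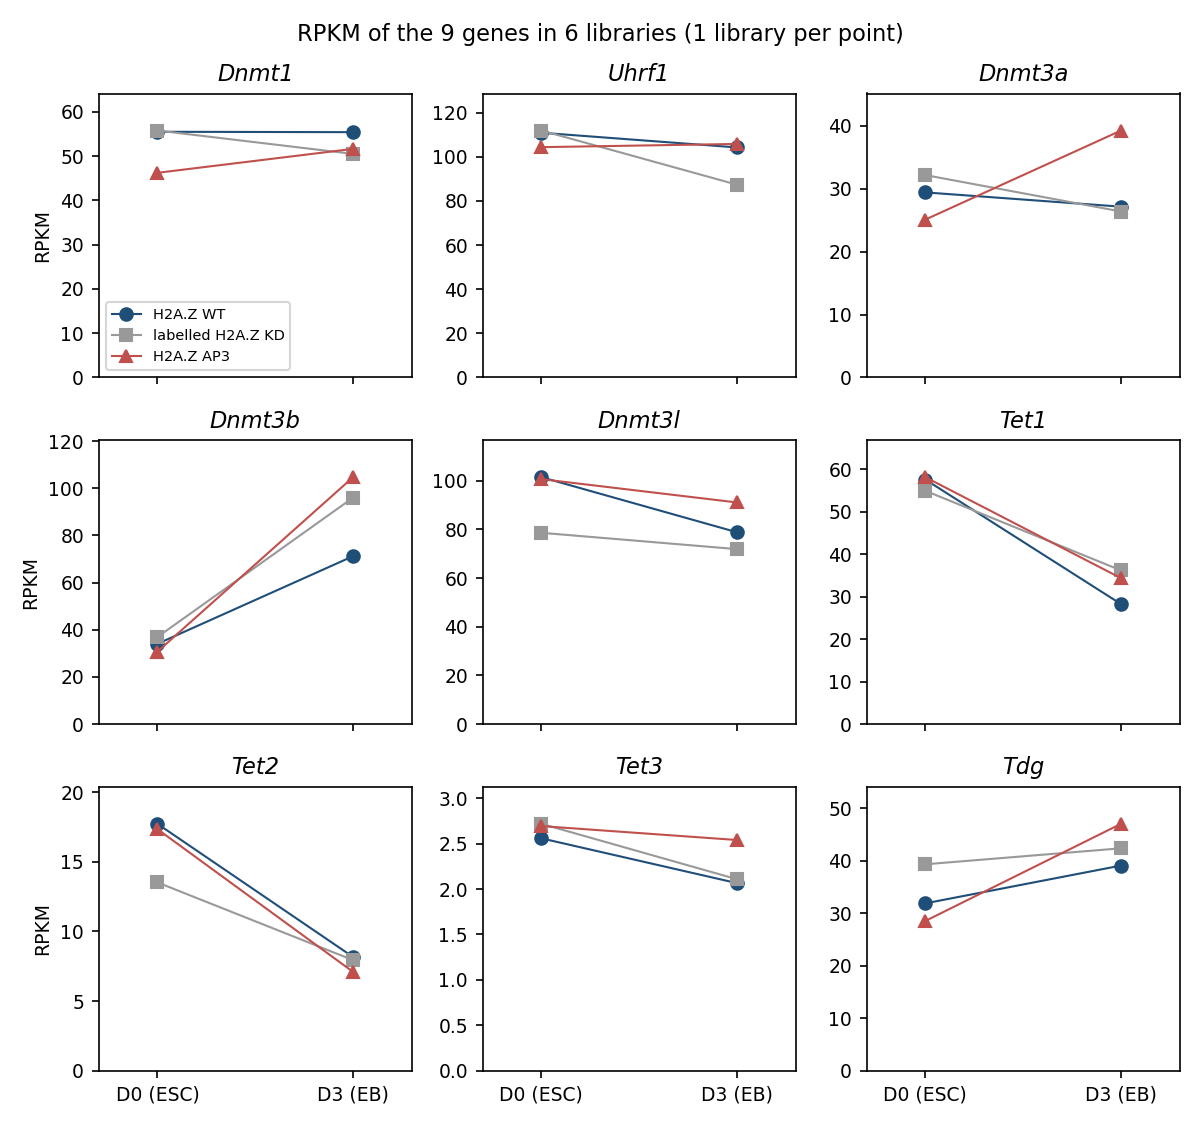
RPKM (vertical axis, from 0) of each of the 9 genes at D0 and D3, with 1 point per library and lines joining the libraries of 1 cell line. Dnmt3b climbs from 30.7 to 36.9 RPKM at D0 to 71.2 to 105 RPKM at D3, Tet1 and Tet2 descend in each line, and Dnmt3a climbs only in AP3.

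Tet1 was the main TET transcript in every library. Tet1, on chromosome 10 (62267319 to 62342762, minus strand, mm9), was at 57.5, 54.9 and 58.1 RPKM in the ESCs of WT, the line labelled KD and AP3, and at 28.2, 36.1 and 34.3 RPKM in EBs. The ESC libraries differed little among themselves and all lay above the EB libraries, of which WT was the lowest. Tet1 fell 2.04-fold in WT (log2 change -1.03), 1.52-fold in the line labelled KD (-0.60) and 1.69-fold in AP3 (-0.76). The fall in the line labelled KD lay just past the 1.5-fold threshold.

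Tet2, on chromosome 3 (133126641 to 133207354, minus strand), was at 17.7, 13.5 and 17.4 RPKM in ESCs, and 8.17, 7.94 and 7.10 RPKM in EBs. The library labelled KD was the lowest of the ESCs, and the 3 EB libraries lay close together. Tet2 fell 2.17-fold in WT (log2 change -1.12), 1.70-fold in the line labelled KD (-0.77) and 2.45-fold in AP3 (-1.29). Of all entries tested, 4.47%, 7.32% and 4.18% fell further in the respective lines. Tet3, on chromosome 6 (83312370 to 83391672, minus strand), stayed between 2.06 and 2.72 RPKM, the lowest of the members in every library. Its log2 change from D0 to D3 was -0.31, -0.37 and -0.08 in WT, the line labelled KD and AP3. Tet1 made up 73.4% to 78.2% of the summed TET RPKM and Tet3 3.29% to 5.78%. Within the lines the share of Tet3 went from 3.29% to 5.37% in WT, 3.82% to 4.56% in the line labelled KD and 3.45% to 5.78% in AP3. That of Tet2 went from 22.8% to 21.2%, 19.0% to 17.2% and 22.2% to 16.1% in the same lines.

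Tdg, the glycosylase that acts after the TET enzymes, lies on chromosome 10 (82092583 to 82153395, plus strand) and was at 31.9, 39.3 and 28.5 RPKM in ESCs, and 39.1, 42.4 and 47.0 RPKM in EBs. AP3 was the lowest of the lines as ESCs and the highest as EBs, as for Dnmt3a. Tdg rose 1.65-fold from D0 to D3 in AP3 (log2 change 0.72), with log2 changes of 0.29 in WT and 0.11 in the line labelled KD. The Tdg entry spans the locus of Glt8d2, listed at no more than 0.239 RPKM.

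The promoters of the members that moved in all 3 lines are shown to set their sequence beside these values. RefSeq promoters, 250 bases before to 50 after each gene start on GRCm38.p6, were found for all 9 members, 16 promoters in all. A GC box (GGGCGG on either strand) was in 12 of the 16, against 35.7% of all 32851 promoters, and a CCAAT box (CCAAT on either strand) was in 6, against 37.4%. Promoters of 1 gene can overlap. Tet2 has 57 CpG in its promoter, a number that 0.152% of promoters reach, Dnmt3b has 30 and Tet1 has 17, where the median promoter has 7. Windows of 30 bases around a GC box, in capitals, from the Dnmt3b promoter (chr2:153649383-153649412, plus strand), the Tet1 promoter (chr10:62887545-62887574, minus strand) and the Tet2 promoter (chr3:133544384-133544413, minus strand) read 5′ to 3′ as follows. The Tdg window (chr10:82629798-82629827, plus strand) is shown beside them because Tdg, which passed 1.5-fold in AP3 alone, is the member without a GC box. It holds an E-box (CACGTG on either strand), found in 3 of the 16 promoters, those of Dnmt3a, Dnmt3l and Tdg, and in 7.15% of all promoters. The Dnmt3b window holds a further GC box that overlaps none of the capitals.
Dnmt3b: ccccccgggcggGGGCGGggccagggccgg
Tet1: ggagggagcgcGGGCGGaatttcaggaaag
Tet2: tgccagtcacgtCCGCCCcctcggcggccg
Tdg: cctggccagcatCACGTGatggcgaggccg
The GC box stood in promoters of members that rose, fell or stayed within 1.5-fold alike. The letters are a description of the sequence, and no binding or methylation of these promoters was analysed here.

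From D0 to D3, 3 of the 9 members changed in WT, where 23.0% of the 12240 entries with at least 1 RPKM in either library changed. In the line labelled KD 3 of 9 changed, against 22.3% of 12184 entries, and in AP3 5 of 9 changed, against 24.3% of 12204 entries. Dnmt3b rose and Tet1 and Tet2 fell in each line, and Dnmt3a and Tdg passed 1.5-fold in AP3. These 3 genes necessarily also changed the same way when the libraries labelled KD, or those of AP3, were left out, so that is no separate check. The median log2 change of the members was -0.12, -0.29 and 0.02 in WT, the line labelled KD and AP3, beside 0.04 over all entries tested in each line. All 9 members had at least 1 RPKM in every library, so none was lost to the filter on low values.

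Averaged over the lines, with the line as a block and the 3 lines standing as pairs of D0 and D3 libraries, limma called 3 of 9 members at a Benjamini-Hochberg adjusted p below 0.05, against 9.93% of 12702 entries. Values after ± are limma's moderated SE, which draws on the spread of all entries and is not the SE over the 3 lines. Dnmt3b had a mean log2 change of 1.38 ± 0.15 (limma adjusted p = 0.0031), higher at D3 in 3 of 3 lines. Tet2 had -0.97 ± 0.13 (limma adjusted p = 0.0070) and Tet1 had -0.78 ± 0.13 (limma adjusted p = 0.012), both lower at D3 in 3 of 3 lines. Tdg, higher at D3 in each line, had 0.36 ± 0.14 and did not pass (limma adjusted p = 0.15), and the other 5 members had limma adjusted p from 0.30 to 0.99. These values are on the log2(RPKM + 1) scale, and the fit was added after the data had been seen. Without the WT libraries Tet1 no longer passed (limma adjusted p = 0.10) and 417 entries were called instead of 1261, while Dnmt3b and Tet2 passed without any 1 of the lines.

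**Figure D2:**
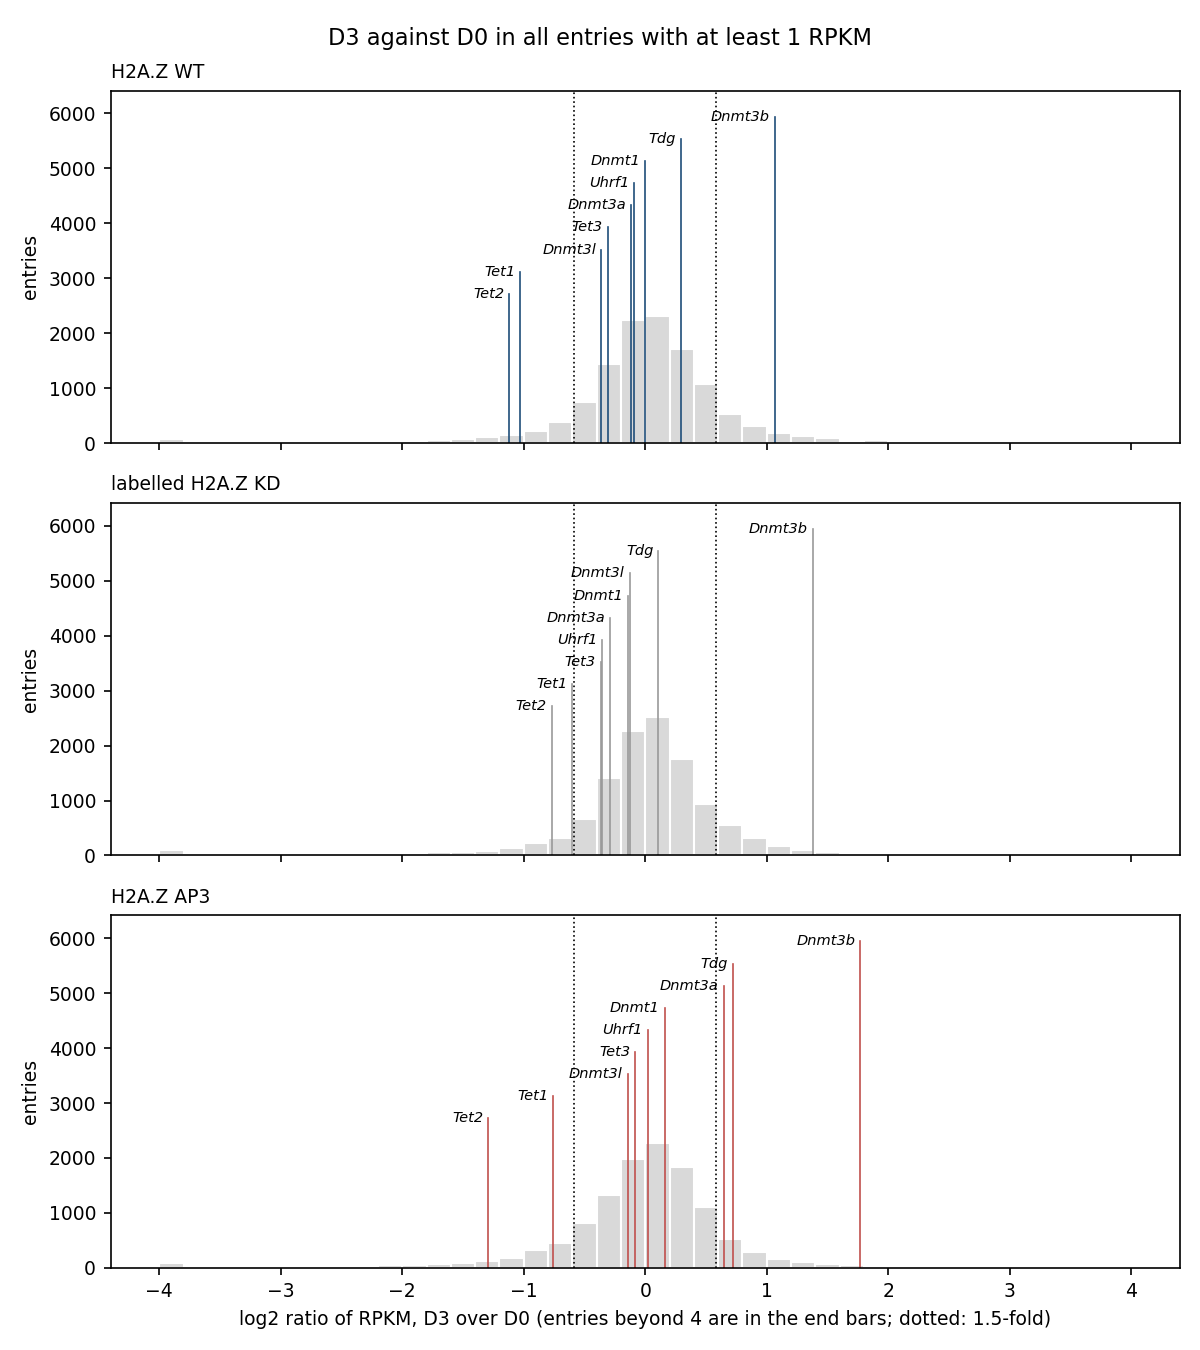
Histograms of the log2 ratio of D3 over D0 RPKM (horizontal axis) for all entries with at least 1 RPKM, counted on the vertical axis, in WT, the line labelled KD and AP3. Vertical lines mark the 9 genes and dotted lines mark 1.5-fold. Dnmt3b stands to the right at 1.07, 1.38 and 1.77, and Tet2 is the leftmost member in each line.

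The balance between de novo methyltransferase and TET RNA turned over between the days. Summed Dnmt3a and Dnmt3b RPKM was 63.4, 69.1 and 55.8 at D0 in WT, the library labelled KD and AP3, and 98.3, 122 and 144 at D3. Summed TET RPKM was 77.8, 71.1 and 78.1 at D0 and 38.5, 46.2 and 44.0 at D3. The ratio of the sums was therefore 0.815, 0.971 and 0.714 in ESCs, with TET RNA in excess in each, and 2.56, 2.65 and 3.27 in EBs. The AP3 line had the lowest ratio of the 3 at D0 and the highest at D3. Dnmt3l RPKM was 1.14 to 1.80 times the summed Dnmt3a and Dnmt3b RPKM in ESCs and 0.587 to 0.801 times in EBs.

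**Figure D3:**
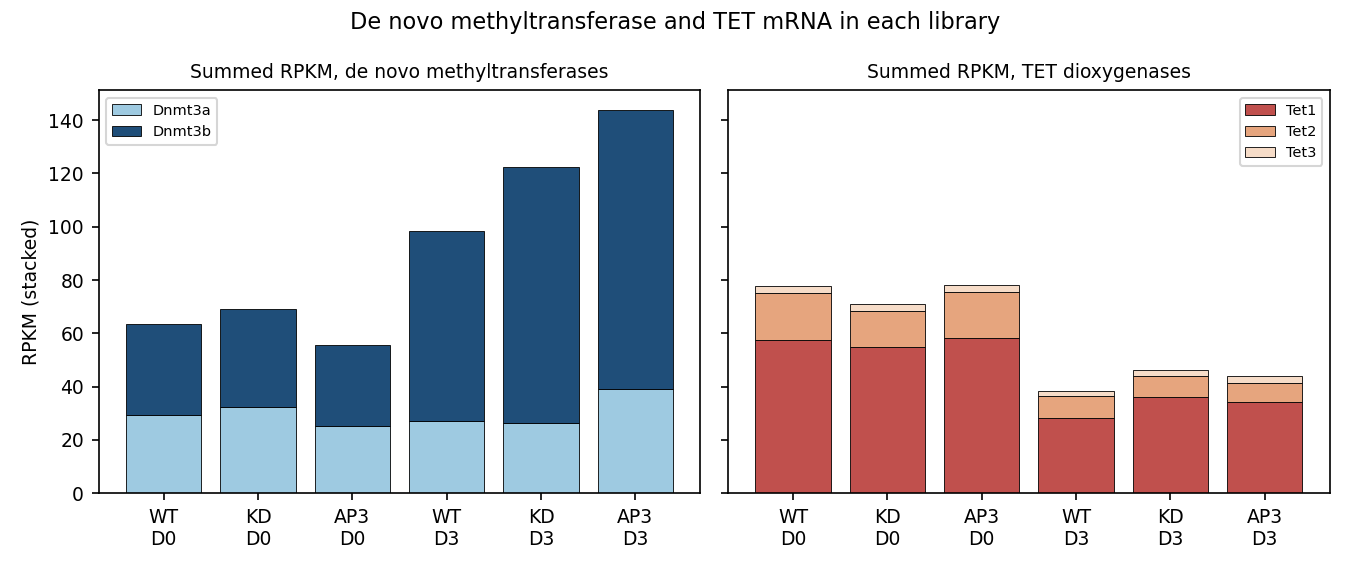
Stacked RPKM of Dnmt3a and Dnmt3b (left) and of Tet1, Tet2 and Tet3 (right) in each of the 6 libraries, with KD standing for the library so labelled. The de novo sum goes from 55.8 to 69.1 RPKM at D0 to 98.3 to 144 RPKM at D3, and the TET sum goes from 71.1 to 78.1 RPKM to 38.5 to 46.2 RPKM.

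Between AP3 and WT, 0 of 9 members passed 1.5-fold in ESCs, where 13.9% of 12162 entries did, and 0 of 9 in EBs, where 10.2% of 11981 entries did. In EBs the members nearest the threshold were Dnmt3b, 1.47-fold higher in AP3 (log2 difference 0.56), and Dnmt3a, 1.45-fold higher (0.53), with 4.64% and 5.17% of entries further in that direction. In ESCs the largest difference was that of Dnmt1, 1.20-fold lower in AP3. For Dnmt3a the log2 difference was -0.23 at D0 and 0.53 at D3.

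Between the library labelled KD and WT, 0 of 9 members passed 1.5-fold at D0, against 8.02% of 12067 entries, and 0 of 9 at D3, against 8.59% of 11956 entries. At D0 Tet2 was 1.31-fold lower, Dnmt3l 1.29-fold lower and Tdg 1.23-fold higher in the library labelled KD. At D3 Dnmt3b was 1.35-fold higher and Tet1 1.28-fold higher. Between AP3 and the library labelled KD, 0 of 9 passed at D0, against 18.4% of 12163 entries, and 0 of 9 at D3, against 11.3% of 11943 entries. Dnmt3a at D3 was 1.49-fold higher in AP3 (log2 difference 0.57), just inside the threshold, and Tdg at D0 was 1.38-fold lower. Averaged over both days with the day as a term, limma called 0 of 9 members and 0 of 12702 entries between any 2 of the lines. At an unadjusted p below 0.05 it held Dnmt3l in AP3 against the line labelled KD (0.34 ± 0.14 moderated SE higher on the log2 scale, higher on 2 of 2 days, limma adjusted p = 0.69), 1 of 9 members beside 898 of 12702 entries. In AP3 against WT and in the line labelled KD against WT it held 0 of 9 members, beside 702 and 319 entries. The comparisons share libraries, and a difference under 1.5-fold between single libraries does not show that the lines have equal levels.

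**Figure D4:**
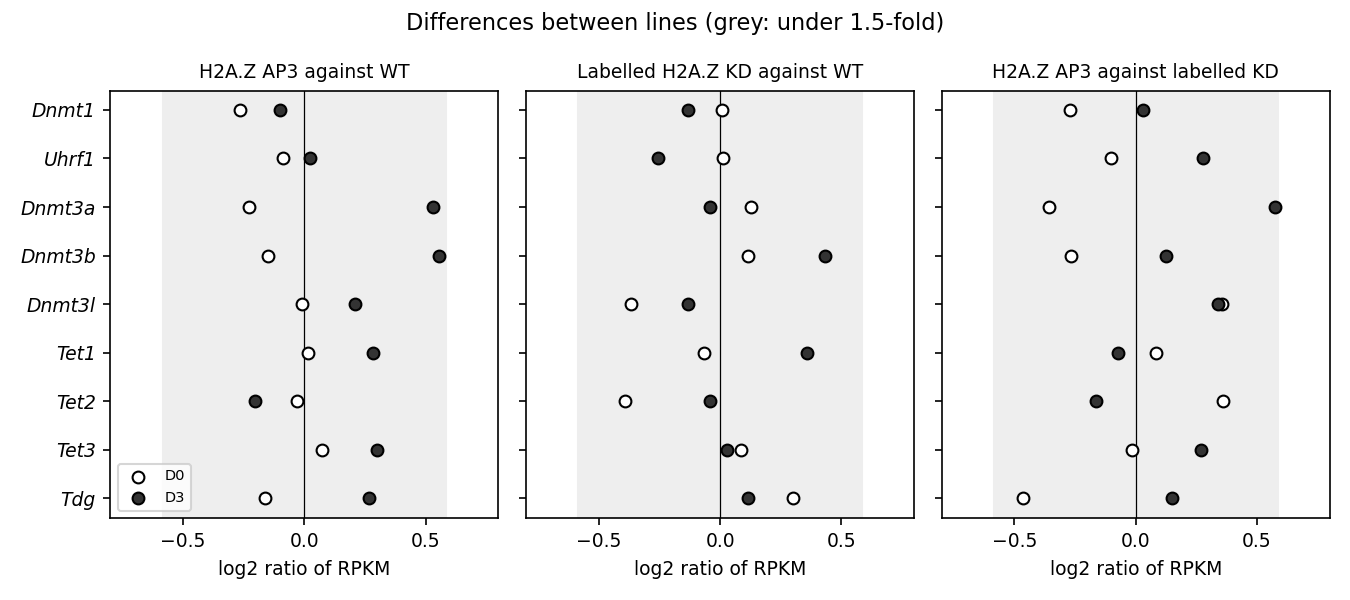
Log2 ratio of RPKM between lines (horizontal axis) for each member at D0 (open points) and D3 (filled points), with the span under 1.5-fold in grey. All points fall inside the grey span, and Dnmt3a and Dnmt3b at D3 lie nearest its right edge in AP3 against WT.

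The change from D0 to D3 differed between AP3 and WT by over 1.5-fold for Dnmt3a (difference of log2 changes 0.76) and Dnmt3b (0.71), 2 of 9 members, where 22.6% of 12540 entries differed that much. Between AP3 and the line labelled KD it differed for Dnmt3a (0.93) and Tdg (0.61), where 28.7% of 12533 entries did. Between the line labelled KD and WT no member differed that much, where 16.9% of 12487 entries did, and Tet1 (0.42) came nearest. With 1 library per condition these differences carry no test.

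Other genes of the methylation pathway were counted in lists, to be read beside the 8.02% to 18.4% of all entries that passed 1.5-fold between lines and the 22.3% to 24.3% that did from D0 to D3. Of 7 partners of maintenance methylation, 0 passed 1.5-fold between lines on either day, and only Cdca7l rose from D0 to D3, in WT (10.7 to 17.5 RPKM) and AP3 (11.4 to 17.3 RPKM). Its rise in AP3 (log2 change 0.607) did not pass under centring or with a pseudocount of 1 RPKM. Pcna, the replication clamp that recruits Dnmt1, lay at 324 to 405 RPKM, and Hells, a remodeller needed for methylation of repeats, at 110.4 to 125 RPKM. Of 10 genes of methyl donor metabolism, 0 changed from D0 to D3 in WT and in the line labelled KD, and 1 rose in AP3. That gene was Mat2a, which makes S-adenosylmethionine, and it is named after its values were seen. It was at 130.3, 175 and 80.5 RPKM in ESCs, and 139, 143 and 181 RPKM in EBs, lowest in AP3 ESCs, where it passed 1.5-fold against both other lines, and it was the only gene of its list to do so between lines. Of 7 methyl-CpG binding proteins measured, Mbd3 rose in WT and AP3 at D3, Zbtb4 fell in AP3 (1.35 to 0.715 RPKM), and 0 changed in the line labelled KD. Mbd3 in WT lay just past the threshold (log2 change 0.588) and did not pass under centring. With a pseudocount of 1 RPKM neither Mbd3 in WT nor Zbtb4 in AP3 passed. Between lines Zbtb33 and Zbtb4 were higher in AP3 than in the library labelled KD at D0, and no other comparison held a gene of this list.

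Of 11 excision repair genes, which include steps after Tdg and other glycosylases that act beside it, 2, 1 and 3 rose from D0 to D3 in WT, the line labelled KD and AP3 and 0 fell. Between lines Neil2 was lower in AP3 than in WT at D3, and Apex1 and Ung were lower in AP3 than in the library labelled KD at D0. Neil2, a glycosylase of base excision repair, was at 3.64, 3.52 and 2.59 RPKM in ESCs, and 9.27, 6.97 and 5.01 RPKM in EBs, a rise in each line with log2 changes of 1.35, 0.99 and 0.95. It was the only gene of this list to rise in all 3 lines. Among 10 TET partners and genes of cofactor supply, of which 8 were tested, 1, 2 and 1 rose and 4, 3 and 2 fell in the respective lines. Gadd45b and Gadd45g, stress-induced adaptors linked to demethylation, fell in each line. Gadd45g went from 12.8, 12.1 and 8.88 RPKM to 3.15, 3.04 and 2.22 RPKM, with log2 changes of -2.02, -1.99 and -2.00. Gadd45b went from 27.9, 26.3 and 26.2 RPKM to 16.6, 14.9 and 11.4 RPKM. Gadd45a, named after its values were seen, fell in WT and in the line labelled KD (64.1 to 24.2 and 44.8 to 19.4 RPKM) and lay at 55.8 and 41.4 RPKM in AP3. It was higher in AP3 than in both other lines at D3, the only calls of this list between lines.

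Of 9 factors that protect or direct methylation, 0, 0 and 1 rose and 1, 1 and 1 fell from D0 to D3 in WT, the line labelled KD and AP3. Zfp57, which holds methylation at imprinted regions, fell in each line, from 138, 91.8 and 170.2 RPKM at D0 to 66.0, 60.2 and 61.9 RPKM at D3. At D0 it was lower in the library labelled KD than in AP3 and, just past the threshold, in WT (log2 difference -0.587). Under centring or with a pseudocount of 1 RPKM it did not pass against WT. Its partner Trim28 lay at 236 to 353 RPKM with no change past 1.5-fold in any comparison. Prdm14, a repressor known to hold down Dnmt3b in naive ESCs, was at 6.93, 5.40 and 3.78 RPKM in ESCs, and 6.48, 6.64 and 4.07 RPKM in EBs. It was lower in AP3 than in WT on both days (log2 differences -0.88 and -0.67) and lower than in the library labelled KD at D3 (-0.71), and it stayed within 1.5-fold from D0 to D3 in each line. Dppa3, which shields DNA from Tet3 and from Uhrf1 activity and is named after its values were seen, was at 37.9, 33.8 and 16.6 RPKM in ESCs, lowest in AP3, and at 25.5, 32.5 and 26.8 RPKM in EBs. It rose 1.62-fold in AP3 from D0 to D3.

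Markers of cell state and of other cells moved with the same comparisons, and their part in the members' changes was not tested. Counts of markers, here and in the next paragraph, are to be read beside the shares of all entries past 1.5-fold in either direction. These were 8.02% to 18.4% between lines and 22.3% to 24.3% from D0 to D3. Summed RPKM of 7 primed epiblast markers was 21.8, 22.3 and 8.59 at D0 and 62.3, 61.2 and 60.9 at D3. AP3 ESCs thus began lowest and ended level with the other lines. Of these markers Fgf5, Otx2 and Zic2 rose in each line, Otx2 from 4.22, 5.14 and 1.37 RPKM to 22.3, 24.6 and 17.5 RPKM, while T stayed under 1 RPKM throughout. Of 8 pluripotency markers measured, 3, 5 and 4 fell in WT, the line labelled KD and AP3 and 0 rose. Klf4 fell from 121, 131 and 65.9 RPKM to 17.4, 17.1 and 14.9 RPKM and Tcfcp2l1 from 42.8, 42.4 and 68.3 RPKM to 18.2, 16.0 and 11.0 RPKM. Klf2 was lower in AP3 than in WT on both days, 41.1 against 123 RPKM at D0 and 33.3 against 63.0 RPKM at D3.

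Extraembryonic endoderm markers summed to 9.55, 14.1 and 32.9 RPKM in ESCs, and 52.5, 103 and 56.0 RPKM in EBs over 8 genes. Sox17, Sox7, Ttr and Amn rose in each line, with Afp and Ttr at 0 in WT and AP3 ESCs. Between lines, 6 of 6 tested were higher in AP3 than in WT at D0, 6 of 8 were higher in the library labelled KD than in WT at D3, and 6 of 8 were lower in AP3 than in the library labelled KD at D3. Sox7 was higher than in WT on both days in AP3 and in the library labelled KD. Gata4, at 3.24, 4.94 and 12.1 RPKM at D0 and 13.7, 23.2 and 13.3 RPKM at D3, was higher than in WT in the library labelled KD on both days and in AP3 at D0. Feeder fibroblast markers summed to 29.4, 25.4 and 48.5 RPKM in ESCs, and 13.7, 8.05 and 10.7 RPKM in EBs over 9 genes. Col1a1, Col1a2, Col3a1, Fbn1 and Twist2 fell in each line while Thy1 rose, from 1.74, 2.42 and 1.74 RPKM to 9.19, 5.48 and 3.56 RPKM. Without Thy1, left out after its values were seen, the sums were 27.6, 23.0 and 46.7 RPKM at D0 and 4.49, 2.56 and 7.10 RPKM at D3. AP3 was then highest on both days, whereas over all 9 genes WT was highest at D3. Postn was listed at 0 in 4 libraries and Lum at 0 in 3. Col1a1 and Col1a2 were higher in AP3 than in WT on both days, at 15.5 against 9.76 RPKM and 22.5 against 12.9 RPKM at D0.

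For the 3 members whose levels ranged over 2-fold, the entries with the most similar profile over the 6 libraries were sought. The search covered the 8255 entries whose RPKM averaged 5 or higher across all libraries. Likeness was the distance between the log2 profiles after each was centred on its mean. Nearest to Dnmt3b were Pgm2, a sugar phosphomutase (distance 0.41), the entry that joins the noncoding Mirg with 3 microRNAs (0.43) and 1110007C09Rik (0.48). Pgm2 was at 17.4, 20.1 and 13.3 RPKM in ESCs, and 38.8, 51.0 and 42.6 RPKM in EBs. Nearest to Tet1 were Sertad2 (0.20), Itpr3 (0.21) and Fam54a (0.26), and nearest to Tet2 were Eda2r (0.19), Plec (0.25) and Nup62cl (0.26). Eda2r, a receptor of the TNF receptor family, went from 22.1, 16.1 and 23.2 RPKM at D0 to 9.65, 9.07 and 8.16 RPKM at D3, lowest in the library labelled KD among ESCs as Tet2 was.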

How the data were processed

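Poly(A)-selected RNA of 6 conditions was sequenced by the authors with the Illumina TruSeq kit, aligned to mm9 and summarised per gene. The submitters' processing notes name TopHat 1.14, Bowtie 0.12.7, Cufflinks 1.3.0 and Cuffdiff. The values used are the RPKM values the authors deposited, 1 column per condition. Columns of log2 ratios between lines, which the authors deposited in the same table, hold the study's own comparisons and were not used. Reads could map to several places, so near-identical copies may share reads. Low RPKM values showed no clear steps, so depth and counting error are unknown.

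Log2 changes were computed here as the log2 of (RPKM + 0.001) over (RPKM + 0.001), and an entry was tested where it had at least 1 RPKM in 1 of the 2 libraries. Over 1.5-fold counted as changed. Single pairs of libraries carry no test. In a fit added after the data had been seen, limma 3.58.1 (R 4.3.3, moderated with a mean trend) was run on log2(RPKM + 1) of the 12702 entries with at least 1 RPKM in 1 library, with line and day as terms (2 residual degrees of freedom) and Benjamini-Hochberg adjustment. The day effect is thus paired by line, as the labels give it, and the lines are different lines rather than replicates. The members and the 10 gene lists (88 places, 86 of them matched to an entry) were chosen with earlier results of these data known. Named were all members, H2afz and H2afv, list genes that changed in all 3 lines from D0 to D3 or on both days of a contrast between lines, the 3 nearest profiles of members ranging at least 2-fold, and genes named after their values were seen: Pou5f1, Sox2 and Zfp42 as a check of the cells, Pcna, Hells, Trim28 and T as steady or low examples, the few genes behind small counts (Cdca7l, Mbd3, Zbtb4, Zbtb33, Apex1, Ung, Mat2a, Gadd45a, Dppa3), and Afp, Postn and Lum for values of 0. Zbtb38 and Nanog were not analysed here. Table coordinates are mm9, with starts raised by 1. Promoters are from RefSeq (GRCm38.p6), and the builds were not mixed. On simulated tables without noise, 200 genes per comparison were set exactly 2-fold apart, and all 200 were recovered and 0 others were called. This outcome follows from the 1.5-fold threshold. It checks only the calling step and says nothing of the accuracy of ratios between single libraries. In a simulation of the limma fit over 12702 entries, every entry had noise of the same size and no difference between lines. There 200 of 200 entries changed by 2 on the log2 scale were recovered and 9 others were called. That change is larger than the fitted change of any member, so recovery of changes of the members' size was not tested. Python 3.11.15, numpy 2.4.6, pandas 2.3.3 and matplotlib 3.10.9 were used.

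Alternatives were pseudocounts of 0.1 and 1 RPKM, centring each pair on its median ratio, a 2-fold threshold, summing entries that share a symbol, and no filter on low values.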

Additional observations from a re-analysis of the deposited data

Results flagged for a closer look

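In 4 contrasts a member differed between lines in opposite directions on the 2 days, with over 1.5-fold between the days. None of these differences was tested, since each rests on 4 single libraries. Dnmt3a was lower in AP3 than in WT at D0 (log2 difference -0.23) and higher at D3 (0.53), 0.76 apart. Against the library labelled H2A.Z KD, Dnmt3a in AP3 went from -0.36 to 0.57, 0.93 apart. Dnmt3b in AP3 against WT went from -0.15 to 0.56, 0.71 apart. Tdg in AP3 against the library labelled KD went from -0.46 to 0.15, 0.61 apart. All 4 rest on the AP3 libraries, and the Dnmt3a contrasts share them, so they are not separate support. Over all entries, the difference between the days passed 1.5-fold, in either direction and whatever the signs, for 22.6% in AP3 against WT and 28.7% in AP3 against the line labelled KD.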

How the results depend on the processing

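With pseudocounts of 0.1 or 1 RPKM, centring on the median, summed entries or no filter on low values, the number of changed members in each of the 9 comparisons and the side of the threshold of each of the 81 member changes stayed as reported. No change past 1.5-fold reversed its direction under these alternatives. Of the 81 member changes, 1 changed sign, Uhrf1 in AP3 from D0 to D3 (0.02) under centring. The 2-fold threshold left 2 changed members in AP3 from D0 to D3 instead of 5 (Dnmt3b and Tet2), 1 in the line labelled H2A.Z KD instead of 3 (Dnmt3b), and 1 that changed the same way in every line instead of 3 (Dnmt3b). In WT 3 members still passed it. No share of all entries at 2-fold is set beside these counts, so they are not read against a background. The 4 differences between lines in the change from D0 to D3 that passed 1.5-fold did not reach 2-fold. Of 90 counts of list genes, 35 moved by over 1.5 times with the 2-fold threshold, 14 without the filter, 11 with a pseudocount of 1 RPKM and 7 with centring. Centring moved the median of all entries by at most 0.04 on the log2 scale.

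With the line as a block, limma called 3 members from D0 to D3 with pseudocounts of 1, 0.1 and 0.001 RPKM. It called 3 without the AP3 or the KD libraries and 2 without WT. Of all 12702 entries, 1261, 1403 and 1391 were called with the respective pseudocounts. Without AP3 1882 of 12487 entries were called, without KD 878 of 12540 and without WT 417 of 12533. The same count of 3 members thus stood beside different shares of all entries. Each condition has 1 library and no replicate numbers, so replicates within a condition were neither paired nor left out. Depth is unknown, and no counting error is set beside the values. It bears most on Tet3, at 2.06 to 2.72 RPKM, and on markers under 1 RPKM.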
